A study of Rattus norvegicus with 12 samples.

Results

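The opioid genes described here are the 4 peptide precursors Penk, Pdyn, Pnoc and Pomc and the 4 receptors Oprm1, Oprd1, Oprk1 and Oprl1. They were found by gene symbol, and these 8 genes of 37209 listed in the count table were all measured. RNA came from the central amygdala (CeA), the main output nucleus of the amygdala, of 12 wild type Sprague Dawley rats aged 14 to 16 weeks, all male. Ethanol vapor was given intermittently each day over several weeks to 6 rats (CIE, rats 1 to 6), and the other 6 breathed air continuously (Control, rats 7 to 12). All rats were killed as the last exposure ended, so no withdrawal period followed that exposure in the CIE group. The vapor was intermittent, so CIE rats had breathed air for part of each earlier day. The CeA of 1 hemisphere per rat was removed with a tissue puncher, so neighbouring tissue could enter a sample, and RNA-Seq of poly-A RNA gave 1 library per rat. The comparison asks whether ethanol dependence was accompanied by a different level of opioid peptide or receptor mRNA in the CeA.

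As background, the opioid precursors are large proteins that neurons cut into short peptides. Penk yields the enkephalins, which act on the delta and mu receptors encoded by Oprd1 and Oprm1. Pdyn yields the dynorphins, the main ligands of the kappa receptor Oprk1. Pnoc yields nociceptin, the ligand of Oprl1, and Pomc yields beta-endorphin together with melanocortins and ACTH. The receptors couple to inhibitory G proteins and reduce neuronal firing and transmitter release. GABAergic neurons of the CeA and of the adjoining striatum make enkephalin and dynorphin, and the opioid system is widely studied in ethanol reward, withdrawal and the aversive state of dependence.

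No opioid gene differed between CIE and Control at 5% FDR. In the edgeR quasi-likelihood test 0 of 8 passed, with 1 at a nominal p below 0.05. DESeq2 gave 0 and 1, with 7.48% of all genes at a nominal p below 0.05, and limma-voom with sample quality weights gave 0 and 2, with 17.2% of all genes. Of all 20944 genes tested, 0.363% passed 5% FDR and 8.31% had a nominal p below 0.05. The 1 nominal opioid gene was Oprd1. The values of the 2 groups overlapped for each of the 8 genes, and 0.893% of all genes tested did not overlap. The median log2 fold change over the 8 genes was 0.02, beside 0.001 over all genes tested, with 4 estimates above 0 and 4 below. The feature that stood out in these genes was the spread between rats of 1 group. Penk ranged 6.22-fold and Pdyn 5.05-fold over the 12 rats, while Oprm1 ranged 1.64-fold.

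**Figure D1:**
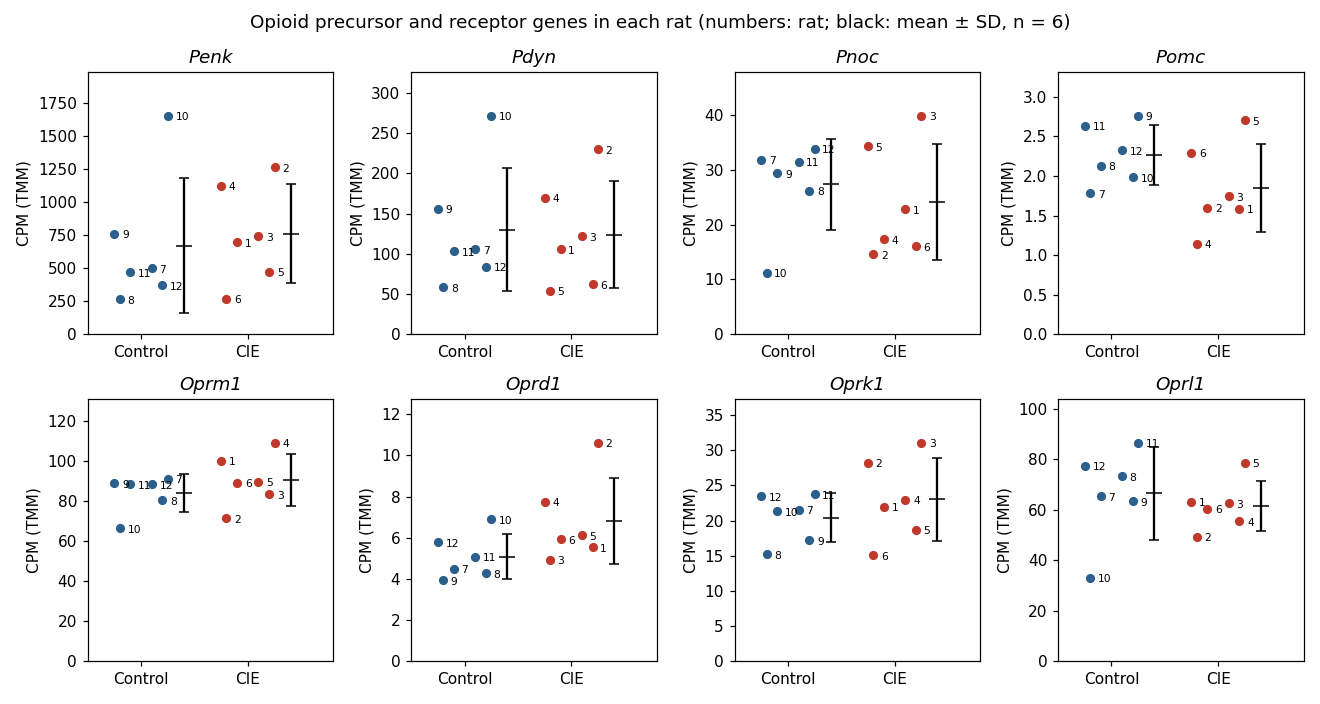
Level of each opioid gene in each rat, in CPM (the reads of a gene scaled to a common library size, with TMM normalization) on a linear axis from 0, for Control (blue) and CIE (red). Points carry the rat number and bars give the mean ± SD of 6 rats. Rats 2, 4 and 10 hold the 3 highest values of Penk and Pdyn, and the CIE and Control points overlap in all 8 panels.

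Total counts per library lay between 39082548 and 95647601. Most of these totals exceed the average number of reads per sample that the paper states. The reason was not given, so counts may not equal independent read pairs. All 11 listed markers of CeA neurons (among them Prkcd, Sst, Crh and Nts) averaged at least 1 CPM. Their summed level was 1500 to 2130 CPM in CIE and 1722 to 2055 CPM in Control. Most of this sum came from Gad1, Gad2 and Slc32a1, general genes of GABAergic neurons that striatal neurons share. The means of these genes were 621, 427 and 427 CPM in CIE and 621, 443 and 477 CPM in Control. The sum is therefore not a measure of CeA neurons alone. Of these 11 markers, 9 had estimates below 0 in CIE, with a median log2 fold change of -0.14, and Crh (-0.45, adjusted p = 0.472) and Nts (-0.46, adjusted p = 0.584) had a nominal p below 0.05. The summed level of 9 markers of striatal projection neurons (among them Drd1, Drd2, Adora2a and Ppp1r1b) was 3628 CPM in CIE rat 2, 1674 CPM in CIE rat 4 and 4014 CPM in Control rat 10, and 294 to 940 CPM in the other 9 rats. A list of 4 markers of intercalated cells, which shares Drd1 with the striatal list, was also highest in these 3 rats, at 578, 533 and 623 CPM against 218 to 402 CPM. The sum of 7 cortical and basolateral glutamatergic markers was 173 to 298 CPM in the same 3 rats. It was 463 CPM in CIE rat 1, and 33.4 to 116 CPM in the other 8. Its median was 169 CPM in CIE and 75.9 CPM in Control. Of these 7 markers, 6 had estimates above 0 in CIE, with a median log2 fold change of 1.23. Neurod2 (1.90, adjusted p = 0.57) and Slc30a3 (1.23, adjusted p = 0.49) had a nominal p below 0.05. A score of these cortical markers, also a covariate below, may carry part of the group difference. A change in that fit cannot be assigned to cortical tissue rather than CIE. The 8 myelin markers summed to 5519 to 13385 CPM in CIE and 8418 to 15783 CPM in Control, and all 8 were lower in CIE at a nominal p below 0.05, with a median log2 fold change of -0.58. A score of these markers, used below as a covariate, therefore carries part of the group difference. A call lost in that fit cannot be assigned to myelin rather than CIE. All 5 endothelial markers had estimates below 0 in CIE, 3 of them at a nominal p below 0.05, with a median of -0.25 and sums of 162 to 214 CPM in CIE and 182 to 230 CPM in Control. Because rats 2, 4 and 10 had the highest striatal sums, the group differences of the 8 opioid genes and of the pathway genes at a nominal p below 0.05 are also given without them. These fits hold 4 CIE and 5 Control rats, a choice made after the values were seen. In bulk tissue, fewer cells of a type and less RNA per cell cannot be told apart.

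The RefSeq promoter windows of the rat (build GRCr8, a later build than the one used for the counts) held 4 of the 8 opioid genes, Pdyn, Pomc, Oprd1 and Oprm1, the last with 2 starts. The last 100 bases before the start are shown for Pdyn, which varied most among these 4, for Pomc, which was counted least, and for Oprd1, which had the lowest p, with TATAAA in capitals.
Pdyn, chr3:137366504-137366603, minus strand: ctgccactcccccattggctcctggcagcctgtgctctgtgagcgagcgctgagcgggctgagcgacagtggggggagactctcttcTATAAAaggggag
Pomc, chr6:32659253-32659352, plus strand: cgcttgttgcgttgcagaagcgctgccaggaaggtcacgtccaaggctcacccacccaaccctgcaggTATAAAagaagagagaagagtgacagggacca
Oprd1, chr5:149625000-149625099, minus strand: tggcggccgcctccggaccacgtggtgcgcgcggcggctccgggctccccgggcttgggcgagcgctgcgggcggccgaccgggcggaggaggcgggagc
The letters TATAAA on the gene's strand begin 13 bases before the Pdyn start and 32 bases before the Pomc start, and were not in the windows of Oprd1 and Oprm1. They occur in 8.06% of all 33469 windows of 250 bases, and this search was added after the sequences were seen. The Oprd1 stretch is 84.0% G and C, against 63.0% for Pdyn and 56.0% for Pomc. The cAMP response element TGACGTCA (1.59% of all windows, either strand), its core TGACG, which the full element also holds (18.2%), and the AP-1 letters TGANTCA (6.34%) were in none of the 5 opioid windows of 250 bases. These are matches of letters in 1 window each and say nothing of binding by the factors.

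Penk, the enkephalin precursor, had the widest spread of the 8 genes. It ran from 270 to 1267 CPM in CIE, with a median of 720, and from 267 to 1658 CPM in Control, with a median of 484. The highest rats were Control rat 10, then CIE rats 2 and 4, and the lowest value of each group was nearly the same. The means were 763 ± 378 CPM in CIE and 671 ± 511 CPM in Control (SD, n = 6 each). CIE minus Control gave a log2 fold change of 0.18 (SE 0.43, adjusted p = 0.943, exact permutation p = 0.582), and the 95% interval held fold changes from 0.596 to 2.17. Leaving out Control rat 10 gave 0.69 and leaving out CIE rat 2 gave -0.02, so that the sign of the estimate rested on single rats. Without rats 2, 4 and 10 the estimate was 0.21 (SE 0.31), and the range over the remaining rats narrowed to 2.85-fold. With the striatal marker score as a covariate it was -0.02 (SE 0.17), and with limma-voom it was 0.56 (SE 0.36).

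Pdyn, the dynorphin precursor, was highest in the same rats as Penk. It ran from 53.9 to 230 CPM in CIE, with a median of 114, and from 58.8 to 272 CPM in Control, with a median of 104. Rats 10, 2 and 4 were again the 3 highest, in that order. The means were 124 ± 67.0 and 130 ± 76.6 CPM (SD, n = 6 each), the log2 fold change was -0.07 (SE 0.39, adjusted p = 0.977, exact permutation p = 0.874), and the 95% interval held fold changes from 0.534 to 1.70. Without Control rat 10 the estimate was 0.29, and without CIE rat 2 it was -0.34. Without rats 2, 4 and 10 it was -0.23 (SE 0.28) and the range over the remaining rats was 2.89-fold. With the striatal score as a covariate Pdyn had a nominal p below 0.05 and a log2 fold change of -0.37 (SE 0.15), but its adjusted p was 0.385.

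Pnoc, the nociceptin precursor, was low in the rats with the most Penk and Pdyn. It ran from 14.5 to 39.9 CPM in CIE, with a median of 20.1, and from 11.2 to 33.8 CPM in Control, with a median of 30.4. Control rat 10 had the lowest value of all 12 rats and CIE rat 2 the next lowest, while CIE rats 3 and 5 lay above every Control rat. CIE rat 6, which had the lowest Penk of its group, was low in Pnoc as well, at 16.1 CPM beside 17.3 CPM in CIE rat 4. Pearson's r of Penk and Pnoc was -0.491 over the 12 rats with group means removed. Without rats 2, 4 and 10 it was 0.478 (permutation p = 0.192, adjusted p = 0.761). Leaving out also rats 6 and 8, the 2 farthest from the median of Penk, gave -0.246. The sign of r over the 9 rats therefore rested on these 2 rats. The log2 fold change was -0.18 (SE 0.29, adjusted p = 0.917, exact permutation p = 0.567), with a 95% interval of fold changes from 0.578 to 1.35. The estimate was -0.10 (SE 0.21) without rats 2, 4 and 10. It became 0.04 with the striatal score, 0.08 with the cortical score and -0.66 with the myelin score as a covariate, and was -0.45 with limma-voom, with adjusted p-values from 0.322 to 0.992 in these 4 fits.

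Pomc, the precursor of beta-endorphin, was counted least, with 77 to 205 counts per library. In the brain its mRNA is known mainly from the arcuate nucleus of the hypothalamus. Of 6 markers of arcuate or pituitary cells 5 averaged below 1 CPM, and their summed level was 1.71 to 2.69 CPM in CIE and 1.70 to 2.21 CPM in Control. Pomc itself ran from 1.15 to 2.71 CPM in CIE, with a median of 1.67, and from 1.78 to 2.76 CPM in Control, with a median of 2.23. CIE rats 1, 2, 3 and 4 lay below every Control rat and CIE rats 5 and 6 within the Control range. For Pomc the log2 fold change was -0.30 (SE 0.20, adjusted p = 0.763, exact permutation p = 0.130), and the 95% interval held fold changes from 0.603 to 1.10. Pomc had a nominal p below 0.05 under limma-voom (log2 fold change -0.50) and without CIE rat 5 (-0.44), with adjusted p-values of 0.229 and 0.552. Without rats 2, 4 and 10 the estimate was -0.15 (SE 0.21). In the RefSeq annotation Pomc overlaps Efr3b, which was counted at means of 240 CPM in CIE and 247 CPM in Control. The strand setting of the counting was not stated, so reads from the stretch where the 2 genes overlap cannot be told apart.

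Oprm1, the mu receptor, varied least of the 8 genes. It ran from 71.3 to 109 CPM in CIE, with a median of 89.4, and from 66.4 to 91.2 CPM in Control, with a median of 88.4. Control rat 10 and CIE rat 2 had the 2 lowest values and CIE rats 1 and 4 the 2 highest, above every Control rat, so the 3 rats with high striatal markers did not move together here. The means were 90.4 ± 13.1 and 83.9 ± 9.32 CPM (SD, n = 6 each), and the log2 fold change was 0.11 (SE 0.10, adjusted p = 0.840, exact permutation p = 0.372). Its 95% interval was the narrowest of the 8, with fold changes from 0.925 to 1.25. Without rats 2, 4 and 10 the estimate was 0.06 (SE 0.07) and the remaining rats ranged 1.24-fold.

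Oprd1, the delta receptor, was the opioid gene with the lowest p. It had 197 to 637 counts per library. It ran from 4.93 to 10.6 CPM in CIE, with a median of 6.03, and from 3.94 to 6.89 CPM in Control, with a median of 4.79. CIE rats 2 and 4 lay above every Control rat, rat 10 was the highest Control, and the other 4 CIE rats lay within the Control range. The means were 6.82 ± 2.08 and 5.08 ± 1.10 CPM (SD, n = 6 each). CIE exceeded Control by a log2 fold change of 0.43 (SE 0.19), with a 95% interval of fold changes from 1.01 to 1.79. The p from edgeR ranked 1566 of the 20944 genes tested, with an adjusted p of 0.584, and the exact permutation test over rats gave p = 0.0758. The estimate stayed above 0 in every alternative run, but the nominal call was lost without any 1 of CIE rats 2 and 4 and Control rats 7, 8, 9 and 11, and with the striatal, cortical or myelin score as a covariate. Without CIE rat 2 it was 0.26, and without rats 2, 4 and 10 it was 0.27 (SE 0.14, adjusted p = 0.800). The 3 highest values of Oprd1 lay in rats 2, 4 and 10, and the part of the striatal marker level in the result was not tested beyond these fits.

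Oprk1, the kappa receptor, ran from 15.1 to 31.1 CPM in CIE, with a median of 22.5, and from 15.3 to 23.7 CPM in Control, with a median of 21.4. CIE rats 2 and 3 were above every Control rat, and CIE rat 6 was below. Its log2 fold change was 0.17 (SE 0.16, adjusted p = 0.841, exact permutation p = 0.435), with a 95% interval of fold changes from 0.883 to 1.44. It was 0.11 (SE 0.20) without rats 2, 4 and 10, and -0.25 with the myelin score as a covariate.

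Oprl1, the nociceptin receptor, ran from 49.3 to 78.7 CPM in CIE, with a median of 61.5, and from 33.1 to 86.6 CPM in Control, with a median of 69.5. Control rat 10, CIE rat 2 and CIE rat 4 were the 3 lowest, as they were the 3 highest for Penk and Pdyn. For Oprl1 it was -0.11 on the log2 scale (SE 0.18, adjusted p = 0.918, exact permutation p = 0.807), with a 95% interval of fold changes from 0.707 to 1.21. Without the 3 rats it was -0.14 (SE 0.11), and it became 0.07 with the striatal and 0.02 with the cortical score as a covariate.

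**Figure D2:**
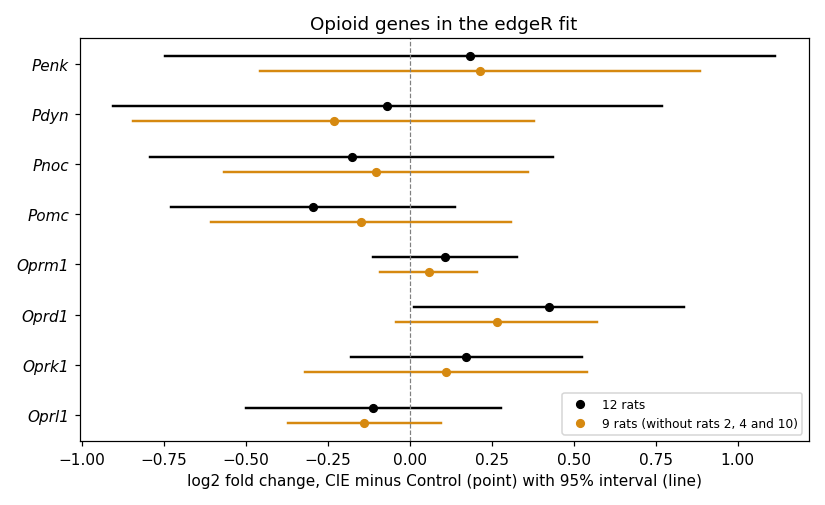
Log2 fold change of each opioid gene, CIE minus Control, from the edgeR fit of 12 rats (black) and of 9 rats without rats 2, 4 and 10 (orange), with 95% intervals as lines. Every interval includes 0 except that of Oprd1 over 12 rats, which starts at 0.01, and the intervals of Penk and Pdyn are the widest over 12 rats.

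The spread between rats was set against that of all genes. The SD of log2 CPM within groups was larger in Penk than in 94.2% of the genes tested and in Pdyn than in 92.2%, followed by Pnoc (85.6%), Oprl1 (70.8%), Oprd1 (68.0%), Pomc (67.7%), Oprk1 (65.1%) and Oprm1 (40.9%). Without rats 2, 4 and 10 the shares fell by different amounts. Penk and Pdyn still exceeded 87.5% and 84.2% of genes, while Oprl1 exceeded 41.4%, Oprd1 43.7% and Oprm1 8.96%. Oprk1 went the other way, to 71.7%. Levels of different opioid genes were not compared, since transcript lengths were not used here.

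**Figure D3:**
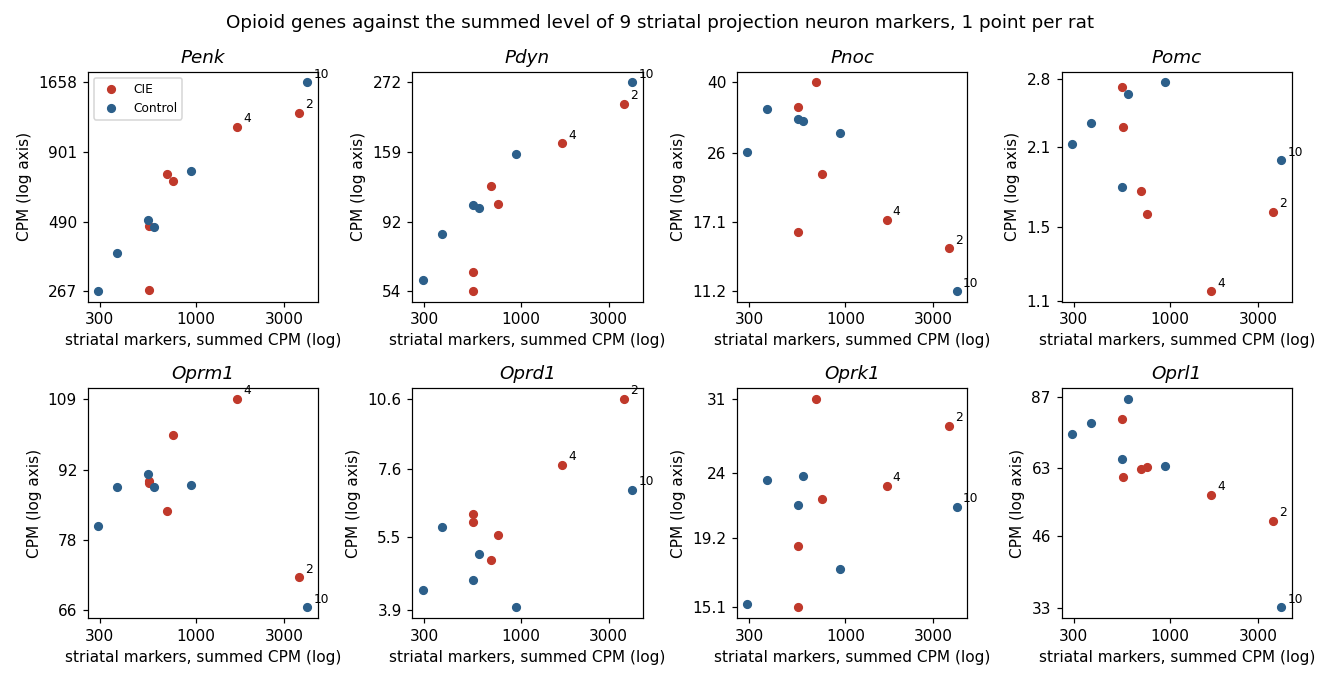
CPM of each opioid gene against the summed CPM of 9 striatal projection neuron markers, 1 point per rat, both axes logarithmic, CIE in red and Control in blue. Rats 2, 4 and 10, above 1000 CPM of striatal markers, hold the highest Penk and Pdyn and the lowest Oprl1, and their Oprm1 runs from the lowest to the highest value.

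Relations between opioid genes were computed over the 9 rats below 1000 CPM of striatal markers, for all 28 pairs. This limit was chosen after the values were seen. Among the 9 rats the striatal sum still ran from 294 CPM in Control rat 8 to 940 CPM in Control rat 9. The part of this remaining striatal variation in the relations was not tested. The closest pair was Penk and Pdyn, with Pearson's r of 0.805 (permutation p = 0.0107, adjusted p = 0.300) and Spearman's rho of 0.833 (permutation p = 0.00827, adjusted p = 0.232). Without the 2 rats farthest from the median of Penk r was 0.667. Pnoc and Oprk1 gave r = 0.684 (permutation p = 0.0402, adjusted p = 0.563) and rho = 0.633 (permutation p = 0.0760, adjusted p = 0.946). No pair passed after adjustment over the 28.

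Penk, Pdyn and Pnoc were then related within the rat to receptors of their peptides, and Penk also to Pdyn, as a ratio of CPM that can be compared between rats but, being unscaled for length, says nothing of the relative abundance of the 2 mRNAs. The ratio of Penk to Pdyn was 4.33 to 8.78 in CIE and 4.43 to 6.09 in Control. It ranged less than either gene alone. The mean log2 ratio of Penk to Pdyn was 2.629 (SD 0.337) in CIE and 2.276 (SD 0.170) in Control. CIE rats 1, 3, 4 and 5 lay above every Control rat, rat 3 only just (log2 2.610 beside 2.608 in Control rat 10), and CIE rat 6 lay below every Control rat. No test of CIE against Control was run on the ratios. The ratio of Penk to Oprd1 was 45.6 to 151 in CIE and 62.4 to 241 in Control, and the log2 ratio of Penk to Oprm1 was 1.599 to 4.151 in CIE and 1.728 to 4.641 in Control. Pdyn to Oprk1 was 2.89 to 8.15 in CIE and 3.58 to 12.7 in Control. Control rat 10 held the highest value of these last 3 ratios. Pnoc to Oprl1, both low in rats 2, 4 and 10, was 0.266 to 0.638 in CIE and 0.339 to 0.486 in Control. The groups overlapped in all 5 ratios. Without rats 2, 4 and 10 the ratio of Penk to Pdyn was 4.33 to 8.78 in CIE and 4.43 to 4.88 in Control. CIE rats 1, 3 and 5 were then above every remaining Control rat. The highest values without these 3 rats were 151 in CIE and 193 in Control for Penk to Oprd1. For Pdyn to Oprk1 they were 4.81 in CIE and 9.05 in Control.

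Among all genes tested, those whose log2 CPM followed an opioid gene most closely were ranked by Pearson's r over the 12 rats after the group means were removed, and r over the 9 rats is given after it. These values describe the libraries and carry no test, since rats 2, 4 and 10 weigh heavily in the first. Penk was closest to Dlx5, a homeobox factor of forebrain GABAergic neurons (0.985 and 0.987), then Fkbp1a (0.984 and 0.968) and Necab2 (0.977 and 0.964). Pdyn was closest to Car12, a carbonic anhydrase (0.986 and 0.960), then Abhd17c (0.976 and 0.961) and Wipf3 (0.969 and 0.927). Pnoc was closest to Pnck, a calcium and calmodulin dependent kinase (0.990 and 0.981), then Tspyl2 (0.982 and 0.970) and Hap1 (0.981 and 0.967). For these 3 precursors r over the 9 rats was at least 0.927 in each case.

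Among the receptors, Oprm1 was closest to Lingo2 (0.940 and 0.830), the potassium channel Kcnb2 (0.920 and 0.956) and Slc24a3 (0.906 and 0.398), of which the last was much less like it over the 9 rats. Oprd1 was closest to Znrf1 (0.948 and 0.752), Znfx1 (0.943 and 0.816) and the serotonin receptor Htr2a (0.939 and 0.835). Oprk1 was closest to Zcchc10 (0.949 and 0.951), and its other 2 nearest genes, LOC100911717 (0.887 and 0.929) and LOC100362742 (0.883 and 0.885), have no assigned name. Oprl1 was close to Vps33a (0.970 and 0.910) and LOC102546678 (0.970 and 0.808). For Pomc the nearest were LOC102554318 (0.885 and 0.794), LOC102546329 (0.883 and 0.818) and the microglial receptor P2ry12 (0.881 and 0.841), and the first 2 of these averaged below 1 CPM.

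The genes that process opioid precursors, degrade the peptides, carry the receptor signal or act on the Pdyn and Penk genes were described by 5 lists. Of their 57 symbols, 54 were in the table and 50 were tested. At 5% FDR 0 of these passed with edgeR, and 5 of 50 had a nominal p below 0.05, beside 8.31% of all genes. DESeq2 gave 0 and 6, the latter 11.3% of those it tested beside 7.48% of all genes. With limma-voom 0 passed 5% FDR and 17 had a nominal p below 0.05, which is 34% of the 50 beside 17.2% of all genes. The median log2 fold change over the 50 was -0.02.

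The 8 genes of precursor processing included none at a nominal p below 0.05, with a median log2 fold change of -0.01. They cover the prohormone convertases Pcsk1 and Pcsk2, which cut the precursors, and carboxypeptidase E (Cpe), which trims the cut ends. The lowest p-values belonged to Ctsl, a cathepsin (log2 fold change -0.21, SE 0.10, adjusted p = 0.637), Pcsk1n, an inhibitor of Pcsk1 (-0.09, SE 0.09, adjusted p = 0.856), and Furin (-0.08, SE 0.09, adjusted p = 0.860). Pcsk2 was at means of 117 CPM in CIE and 97.7 CPM in Control, with a log2 fold change of 0.26 and an SE of 0.29.

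Of the 8 genes of peptide degradation, 1 was lower at a nominal p below 0.05, and the median was -0.08. It was Anpep, an aminopeptidase that cleaves enkephalins, at 2.38 to 4.06 CPM in CIE (median 3.45) and 3.45 to 5.66 CPM in Control (median 4.50). Its groups overlapped, and the log2 fold change was -0.46 (SE 0.15, adjusted p = 0.359). It was -0.55 without rats 2, 4 and 10, and with the myelin score as a covariate it was -0.25 and the nominal call was lost (adjusted p = 0.661). The endothelial markers, of which 3 of 5 were also lower in CIE at a nominal p below 0.05, moved in the same direction as Anpep, and their part in its difference was not tested. Next came Dpp3, a dipeptidyl peptidase (-0.13, SE 0.06, adjusted p = 0.606), and Ide (-0.14, SE 0.07, adjusted p = 0.653). Mme, which encodes neprilysin, an enkephalin-degrading enzyme, had a log2 fold change of 0.17 with an SE of 0.46.

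Of the 18 genes tested for receptor signalling and desensitization, 1 was higher and 1 lower at a nominal p below 0.05, with a median of -0.02. Rgs7, a regulator that speeds the switching off of inhibitory G proteins, was at 72.2 to 92.6 CPM in CIE (median 76.7) and 64.7 to 74.0 CPM in Control (median 68.3). Its log2 fold change was 0.20 (SE 0.07, adjusted p = 0.359), and all 22 alternatives kept the nominal call, with estimates from 0.14 to 0.25 and 0.22 without rats 2, 4 and 10. Gnai3, an inhibitory G protein alpha subunit, was at 33.6 to 37.3 CPM in CIE and 34.8 to 41.0 CPM in Control, with a log2 fold change of -0.15 (SE 0.06, adjusted p = 0.462). The Gnai3 call was kept in 20 of 22 alternatives and lost without rats 2, 4 and 10 (log2 fold change -0.14, adjusted p = 0.800) and with the myelin score as a covariate (-0.14, adjusted p = 0.500). Rgs19 followed with -0.17 (SE 0.09, adjusted p = 0.635). Rgs9, which is also among the striatal markers, had an estimate of 0.27 with an SE of 0.68. The beta-arrestins Arrb1 (0.07) and Arrb2 (-0.13) and the receptor kinases listed as Adrbk1 (-0.05) and Adrbk2 (0.03), which desensitize opioid receptors, had log2 fold changes near 0.

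Of the 5 other receptor genes tested, 0 had a nominal p below 0.05 and the median was -0.02. The lowest p-values belonged to Mrap2, an accessory protein of melanocortin receptors (log2 fold change -0.18, SE 0.16, adjusted p = 0.823), Mc3r (0.37, SE 0.53, adjusted p = 0.905) and Ogfr, the opioid growth factor receptor (-0.06, SE 0.09, adjusted p = 0.911). Cxcr7, the symbol in the table for Ackr3, a scavenger of opioid peptides, was at -0.02 (SE 0.11).

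Of the 11 transcription factors, 2 were higher at a nominal p below 0.05, with a median of 0.05. Junb and Fosb encode subunits of AP-1, a factor induced by neuronal activity. Junb was at 25.4 to 59.2 CPM in CIE (median 50.3) and 22.5 to 40.4 CPM in Control (median 29.8), with a log2 fold change of 0.60 (SE 0.19, adjusted p = 0.318). Junb was at 0.53 without rats 2, 4 and 10 (adjusted p = 0.568). It passed 5% FDR without CIE rat 6 (log2 fold change 0.73, adjusted p = 0.0458), and with the myelin score as a covariate it was 0.17 and the nominal call was lost (adjusted p = 0.811). Fosb was at 2.85 to 9.63 CPM in CIE (median 5.36) and 2.66 to 5.98 CPM in Control (median 3.72), with a log2 fold change of 0.60 (SE 0.27, adjusted p = 0.577). The Fosb call was lost in 11 of 22 alternatives, with 0.24 without rats 2, 4 and 10. Fos itself was at means of 7.98 CPM in CIE and 7.96 CPM in Control, with an SE of 0.29 on the log2 scale. Kcnip3, which encodes the Pdyn repressor DREAM, was at 0.17 (SE 0.09, adjusted p = 0.653), and Creb1 at -0.09 (SE 0.06).

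**Figure D4:**
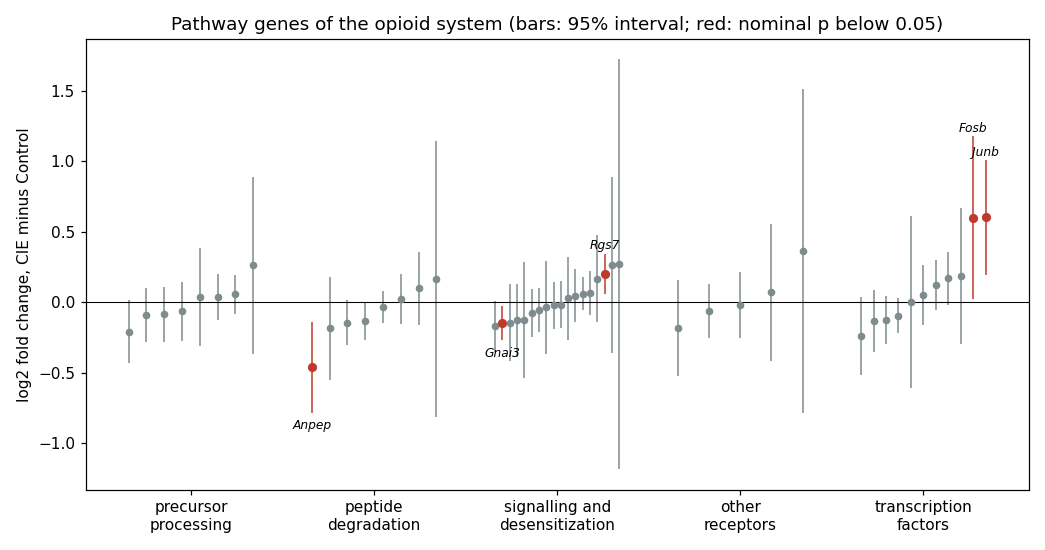
Log2 fold change, CIE minus Control, of the 50 tested pathway genes in 5 lists, each point 1 gene with its 95% interval as a line and red for a nominal p below 0.05. Anpep and Gnai3 lie below 0 and Rgs7, Fosb and Junb above 0, and none of the 50 passed 5% FDR.

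In the RefSeq annotation Oprm1 overlaps Ipcef1, Pdyn overlaps the noncoding LOC120101661, and neither of these 2 symbols was in the count table. Of the genes next to an opioid gene that were measured, the log2 fold changes were 0.12 for Sirpa and -0.10 for Rpl22l2 beside Pdyn, -0.17 for Zfp395 beside Pnoc, and 0.05 for Epb4.1 and 0.04 for Ythdf2 beside Oprd1. For Myt1 beside Oprl1 it was 0.06, for LOC100912510 beside Penk it was -0.08, and for Efr3b it was -0.04. Adjusted p-values of these 8 neighbours were between 0.700 and 0.969.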

How the data were processed

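CeA RNA of 12 rats, 6 CIE and 6 Control, was sequenced as 1 poly-A library per rat. The deposited values are raw HTSeq counts per gene, made by the authors from read pairs aligned by BWA, which places reads without splicing, on the rat genome Rnor_6.0. The annotation, strand and overlap settings were not given in the sources used here. Reads across exon junctions may be missing from the counts, and their share was not measured.

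Counts were fitted in R 4.3.3 with edgeR 4.0.16 (TMM, filterByExpr, quasi-likelihood F test, two-sided, no covariates, Benjamini-Hochberg over 20944 genes). Of 37209 genes listed, 7757 had no count. SEs and 95% intervals came from that fit. Exact permutation tests of mean log2 CPM were two-sided and could reach p = 0.00216 at the smallest. Within-group library pairs differed by 17.5 to 215 times the sampling variance as a mean over genes. The median over genes of the same measure was 3.7 to 15.9. Each rat was therefore kept as 1 replicate. Alternatives used DESeq2 1.42.0 and limma 3.58.1, other normalizations and filters, marker scores (mean log2 CPM of a list) as covariates, and each rat left out. Self-tests used simulated counts. Python 3.11.15, pandas 2.3.3 and scipy 1.17.1 made the descriptions.

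The opioid genes and lists were chosen with earlier results of these data known. Named genes were the 8 opioid genes, in each pathway list those at a nominal p below 0.05 or the 3 with the smallest p where fewer than 3 passed, the 3 genes closest to each opioid gene, and annotated neighbours, of which 1 gene is not reported here. Cpe, Pcsk2, Mme, Rgs9, Arrb1, Arrb2, Adrbk1, Adrbk2, Cxcr7, Fos and Creb1 were named outside this rule, for their roles, with their values seen. Rats were numbered here in the order of the sample titles, with CIE first. The order or batches of processing were not stated in the sources used here, so their effect could not be examined.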

Additional observations from a re-analysis of the deposited data

Results flagged for a closer look

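In 3 cases the value of Control rat 10 lay far from the other 5 Control rats, by a gap to the nearest rat that exceeded Dixon's 95% limit. Penk was highest there, at 1660 CPM. Pnoc was lowest there, at 11.2 CPM. The log2 ratio of Penk to Pdyn was highest there, at 2.608. This rat also had the highest summed level of striatal projection neuron markers, 4014 CPM, and its part in these values was not tested. In all 26 groups of 6 values were examined, and chance gives about 1 such value in 20 groups.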

How the results depend on the processing

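No opioid gene passed 5% FDR in any of the 22 alternatives. The count at a nominal p below 0.05 was 1 in the comparison as reported, 2 with limma-voom, 0 with the cortical or the myelin score as a covariate, 0 without rats 2, 4 and 10, and 0 to 2 with each rat left out in turn. For the pathway genes the count was 5 as reported, 17 with limma-voom, 9 with the striatal score, 3 without rats 2, 4 and 10, and 4 to 11 with each rat left out, the highest without Control rat 10. The share of all genes at a nominal p below 0.05 moved as well, from 8.31% as reported to 17.2% with limma-voom, 10.6% with the striatal score, 6.62% without rats 2, 4 and 10, and 6.38% to 13.3% with each rat left out. The Penk estimate turned to -0.021 with the striatal, -0.074 with the cortical and -0.15 with the myelin score, and ran from -0.020 to 0.69 with each rat left out. Pdyn turned to 0.12 with limma-voom and ran from -0.34 to 0.29. Pnoc turned to 0.044 with the striatal and 0.077 with the cortical score, Oprl1 to 0.070 and 0.018 with the same scores, and Oprk1 to -0.25 with the myelin score. The cause of these turns was not tested, and none of these estimates passed 5% FDR. The cortical markers had a median log2 fold change of 1.23 in CIE, so that score may carry part of the group difference. The myelin score differs between the groups as well, so the fit with the myelin score separates them less well. With it the SE was 0.75 for Penk and 0.63 for Pdyn, beside 0.43 and 0.39 as reported, while for Oprk1 it was 0.16 in both. Pomc, Oprm1 and Oprd1 kept their direction in all alternatives. No paired analysis was made, because each rat was assigned at random to 1 group and no pairing was stated. Rats were group housed, and their cages were not labelled, so a shared cage could not be modelled. Pomc rested on at most 205 counts per library. Over 6 rats per group the 95% intervals of Penk and Pdyn ran from 0.596 to 2.17 and from 0.534 to 1.70 in fold change. Levels per transcript length, planned as a description, were not computed because no length was used here.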
